A study of Mus musculus with 4 samples.

Results

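The primed epiblast is the pluripotent tissue of the embryo just after implantation, between the naive epiblast of the blastocyst and the germ layers. Mouse ES cells pass through a similar state when they leave naive culture, and this state is recognized by a set of transcription factors and a secreted growth factor, several of which naive ES cells express weakly. Of these genes *Fgf5*, *Otx2*, *Pou3f1*, *Foxd3*, *Zic2*, *Zic5* and *Sox3* were examined here. They were chosen by name, as the 7 genes of this group, and took every probe set that the array's annotation assigned to exactly 1 gene symbol equal to the name, 62 probe sets of 209279 with 1 symbol and 7 of 16358 genes. All 7 were found on the arrays, and all 7 were above background on each of the 4 arrays.

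Embryoid bodies (EBs) are floating aggregates in which ES cells differentiate once the signals that hold them naive are withdrawn. The samples were wild type EBs of day 4, wild type EBs of day 8, *Mst1/Mst2* double knockout (*Mst-/-*) EBs of day 4 and *Mst-/-* EBs of day 8, with 1 Affymetrix mouse exon array for each, so no difference could be tested against a spread between cultures. *Mst1* and *Mst2*, the genes *Stk4* and *Stk3*, encode the kinases at the head of the Hippo pathway. The *Mst-/-* cells carry both deletions in all cells and come from blastocysts of crosses between *Mst1+/-* *Mst2-/-* mice, and the sources used here do not say which of the knockout lines was hybridized. A description label of the day 8 *Mst-/-* array reads day 4 while its title reads day 8, and it was used as day 8.

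Values are log2 signals. The signal of a gene is the median over its probe sets, each of which reads a stretch of an exon, and a difference carries as its error the SD over these probe sets, a technical spread and not one between cultures. The 1015 olfactory and vomeronasal receptor genes gave the background, taken as their 95th percentile, 6.91 to 7.03 depending on the array. Genes that exceeded background on 1 array or both arrays of a pair were compared, and a gene was called when it differed by more than 1.5-fold, the threshold in the study's methods. Of the receptor genes, 15.6% passed this threshold between genotypes on day 4 and 12.9% on day 8, and 12.1% between days in wild type EBs and 18.7% in *Mst-/-* EBs. The median genotype difference over all genes compared was 0.015 at day 4 and 0.05 at day 8. As a check of the labels, 2 of the 13 *Stk4* probe sets read 11.42 to 12.03 in wild type EBs against 3.83 to 4.80 in *Mst-/-* EBs. No probe set with 1 gene symbol was assigned to *Stk3*, so its deletion was not checked here. The Y-linked gene *Eif2s3y* was at 10.39 and 10.38 in wild type EBs and below background in *Mst-/-* EBs, at 4.07 and 4.22. The lines thus differed in more than the deletions, and line and *Mst1/Mst2* loss cannot be told apart. In whole EBs, fewer cells of a kind and less RNA in each cell cannot be told apart either.

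The genes fell into 3 groups by their values. *Fgf5*, *Otx2*, *Zic2* and *Zic5* differed between genotypes by less than 1.5-fold at day 4, were lower at day 8, and were less reduced in *Mst-/-* EBs, although the *Zic5* value depended on which of its probe sets were read. *Pou3f1* and *Foxd3* were higher in *Mst-/-* EBs already at day 4, although *Pou3f1* was within 1.5-fold by the median of its probe set differences or by its brightest probe set. *Sox3* differed little on any of the arrays. In the order of the 4 arrays, each pair of neighbours of *Fgf5*, *Zic2* and *Pou3f1* differed by more than the SD over probe sets, while *Otx2* had the day 4 arrays, *Foxd3* the wild type arrays, and *Zic5* the day 4 arrays and the pair of *Mst-/-* arrays within it. This order rests on the gene medians, and the probe sets did not always share it. The median of the probe set differences between genotypes was 0.01 for *Pou3f1* at day 8 and -0.055 for *Zic2* at day 4. At day 4, 2 of the 7 genes were over 1.5-fold higher in *Mst-/-* EBs and none was lower, where 10.3% of the 11943 genes compared were higher and 8.52% lower. At day 8, 5 of the 7 were higher and none was lower, against 8.42% and 8.21% of 12182 genes. This count was 3 by the median of the probe set differences and when 75% of a gene's probe sets had to share its sign, without *Pou3f1* and *Zic5*. It was also 3 at a threshold of 2-fold, but without *Pou3f1* and *Zic2*. The median difference of the 7 genes was 0.20 at day 4 and 0.95 at day 8.

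**Figure D1:**
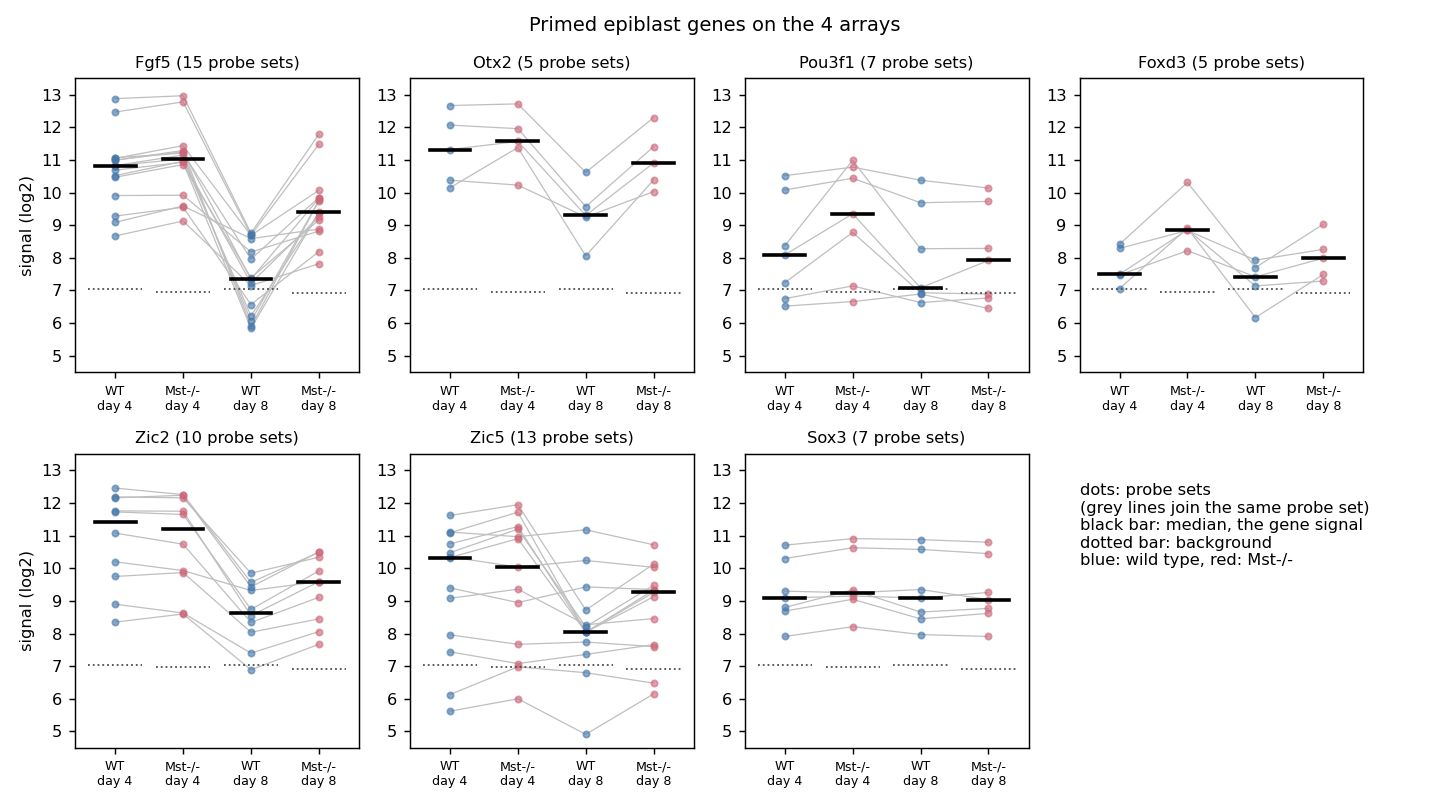
Signal (log2) of each probe set of the 7 primed epiblast genes on the 4 arrays, as dots joined by grey lines, with the gene's median as a black bar and the array's background as a dotted bar. *Fgf5*, *Otx2* and *Zic2* are high on both day 4 arrays and lowest on the wild type array of day 8, *Zic5* splits into probe sets that follow this course and probe sets that stay flat, and *Sox3* is level, between 9.04 and 9.25 by its median.

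For 4 of the genes, *Fgf5*, *Otx2*, *Zic5* and *Foxd3*, sequences before the transcription start were at hand in RefSeq (GRCm38.p6). The 250 bases before the start are printed for *Fgf5*, *Otx2* and *Zic5*. These were chosen because their medians were high on both day 4 arrays and lowest in wild type EBs of day 8. The sequences run 5′ to 3′ on the strand of the gene and end just before the start, with the CG dinucleotides in capitals. The *Fgf5* sequence lies at chr5:98253934-98254183 on the plus strand, that of the outermost of the 4 *Otx2* starts at chr14:48667645-48667894 on the minus strand, and that of *Zic5* at chr14:122465659-122465908 on the minus strand.
*Fgf5*: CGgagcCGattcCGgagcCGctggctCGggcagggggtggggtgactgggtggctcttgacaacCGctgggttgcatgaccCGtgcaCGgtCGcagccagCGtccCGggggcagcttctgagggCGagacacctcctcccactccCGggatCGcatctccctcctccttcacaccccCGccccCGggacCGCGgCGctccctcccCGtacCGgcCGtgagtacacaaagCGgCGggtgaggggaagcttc
*Otx2*: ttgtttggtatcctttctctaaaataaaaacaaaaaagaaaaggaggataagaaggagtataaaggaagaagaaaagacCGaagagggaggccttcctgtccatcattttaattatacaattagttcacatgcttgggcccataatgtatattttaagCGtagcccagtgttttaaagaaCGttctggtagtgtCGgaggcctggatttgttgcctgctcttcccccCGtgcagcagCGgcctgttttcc
*Zic5*: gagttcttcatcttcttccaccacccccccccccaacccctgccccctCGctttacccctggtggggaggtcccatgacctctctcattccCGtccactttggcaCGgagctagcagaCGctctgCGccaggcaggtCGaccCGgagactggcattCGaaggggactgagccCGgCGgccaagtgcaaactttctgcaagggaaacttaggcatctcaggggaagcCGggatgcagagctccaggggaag
The sequences differ in composition. *Fgf5* holds 24 CG dinucleotides and 70.8% G and C, *Zic5* 11 and 62.4%, and *Otx2* 6 and 42.0%, while the *Foxd3* sequence holds 21 and 65.6%. The printed *Otx2* sequence is the lowest of its 4 starts on both measures. The others hold 8, 14 and 9 CG dinucleotides and 49.2%, 48.4% and 53.6% G and C. At least 24 CG dinucleotides are found in 12% of the 32851 promoters of the same length in the table, and their median is 6. Exact matches on both strands were sought for GGAATG, the core bound by the Tead partners of Yap, for ATGCAAAT, the octamer of Pou factors, and for AACAAT, a core bound by Sox factors. Across the *Fgf5*, *Otx2*, *Zic5* and *Foxd3* sequences there was 1 match, GGAATG on the opposite strand of the *Zic5* sequence, at positions -165 to -160 from the start, and GGAATG is found in 12.6% of all promoters, ATGCAAAT in 1.60% and AACAAT in 9.42%. A match of letters is a description of the sequence and says nothing of whether a factor binds there.

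*Fgf5* encodes a secreted fibroblast growth factor that is a widely used mark of the post-implantation epiblast. Its day 4 signal was 10.83 (wild type) and 11.03 (*Mst-/-*), and its day 8 signal was 7.35 (wild type) and 9.40 (*Mst-/-*). The day 4 arrays were thus close and high, the *Mst-/-* array of day 8 lay between, and the wild type array of day 8 was the lowest, 0.32 above background. The day 8 difference between genotypes was 2.05 ± 1.15 on the log2 scale (SD, 15 probe sets), 4.14-fold. All 15 probe sets were higher there, by 0.29 to 3.84. In wild type EBs 10 of the 15 probe sets were above background, and the other 5, with differences of 1.62 to 3.84, had signals at the floor of the array there. At day 4 the difference was 0.20 ± 0.14, again with all 15 probe sets higher in *Mst-/-* EBs, by 0.01 to 0.50.

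From day 4 to day 8 *Fgf5* was 11.2-fold lower in wild type EBs, with -3.48 ± 1.34, the 7th lowest value of 12084 genes compared. In *Mst-/-* EBs it was 3.10-fold lower, with -1.63 ± 0.26, and the 15 probe sets there lay between -1.71 and -0.71. The reduction was therefore present in both genotypes and larger in wild type EBs, by 1.85 ± 1.19 on the log2 scale. A single probe set departed from this course. It had 9.09 and 9.59 at day 4 and 8.59 and 8.88 at day 8, with -0.50 from day 4 to day 8 in wild type EBs where the other 14 lay between -5.09 and -1.52.

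*Otx2*, a homeobox transcription factor that drives the exit from the naive state and later the making of the forebrain, had signals of 11.32 (wild type) and 11.57 (*Mst-/-*) at day 4 and of 9.30 (wild type) and 10.91 (*Mst-/-*) at day 8. The wild type array of day 8 stood apart at the low end, and the day 4 arrays did not differ beyond the SD over probe sets, with 0.25 ± 0.57. At day 8 *Otx2* was 3.05-fold higher in *Mst-/-* EBs, with 1.61 ± 0.56 over 5 probe sets, all of them over 1.5-fold higher, by 0.78 to 2.33. From day 4 to day 8 it was 4.06-fold lower in wild type EBs, with -2.02 ± 0.50. In *Mst-/-* EBs it was 1.58-fold lower, with -0.66 ± 0.29, and 2 of 5 probe sets were over 1.5-fold lower. That call was lost when the probe sets were averaged, with the brightest probe set and with the median of the probe set differences. The change in *Mst-/-* EBs was thus the smaller, by 1.36 ± 0.41, and it was smaller in all 5 probe sets. No floor enters these values, since all 5 probe sets were above background on each array.

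*Zic2* and *Zic5* encode zinc finger transcription factors of the Zic family and are neighbours on chromosome 14 in the RefSeq annotation. *Zic2* had signals of 11.41 (wild type) and 11.20 (*Mst-/-*) at day 4 and of 8.65 (wild type) and 9.59 (*Mst-/-*) at day 8. By the medians the wild type array was slightly the higher of the pair at day 4, by 0.21 ± 0.19, and clearly the lower at day 8. The median of the probe set differences at day 4 was -0.055, with 3 of 10 probe sets higher in *Mst-/-* EBs and 7 lower. At day 8 *Zic2* was 1.93-fold higher in *Mst-/-* EBs, with 0.95 ± 0.30 over 10 probe sets, each of them higher, by 0.27 to 1.18. From day 4 to day 8 *Zic2* was 6.77-fold lower in wild type EBs, with -2.76 ± 0.80, the 21st lowest value of 12084, and 3.04-fold lower in *Mst-/-* EBs, with -1.61 ± 0.60. All 10 probe sets were lower in both genotypes, and all 10 were less reduced in *Mst-/-* EBs.

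The probe sets of *Zic5* did not move together. By its median *Zic5* had signals of 10.33 (wild type) and 10.04 (*Mst-/-*) at day 4 and of 8.05 (wild type) and 9.26 (*Mst-/-*) at day 8, a day 8 difference of 1.21 ± 0.73 over 13 probe sets, 2.31-fold. At day 8, 8 probe sets were higher in *Mst-/-* EBs and 5 were lower, and the median of the 13 probe set differences was 0.30, within 1.5-fold. The brightest probe set had 11.18 in wild type EBs and 10.72 in *Mst-/-* EBs, a difference of -0.46. In wild type EBs 7 of the 13 probe sets were over 1.5-fold lower at day 8 than at day 4, and these had a median genotype difference of 1.24 at day 8, between 0.19 and 1.41. The other 6 were between -0.22 and 0.67 from day 4 to day 8, and between -0.46 and 0.30 between genotypes at day 8. This split reads the same wild type array as the difference and is given as a description. The 7 probe sets that were reduced had a median of -2.29 from day 4 to day 8 in wild type EBs and -1.78 in *Mst-/-* EBs, and 1 of them was below background on every array. The day 4 difference of *Zic5* was -0.29 ± 0.46 by the medians and 0.33 as the median of the probe set differences, so it has no settled sign.

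*Pou3f1*, also known as Oct6, is a POU transcription factor of the epiblast and later of neural and glial cells. Its signal was 8.09 (wild type) and 9.35 (*Mst-/-*) at day 4 and 7.08 (wild type) and 7.92 (*Mst-/-*) at day 8, the wild type array of day 8 being 0.05 above background. The highest array was thus the *Mst-/-* array of day 4, where *Pou3f1* was 2.39-fold higher than in wild type EBs, with 1.26 ± 0.92 over 7 probe sets. All 7 were higher there, by 0.14 to 2.62, and 3 of them by over 1.5-fold, while their median difference was 0.39. The probe set with the largest difference had 8.37 in wild type EBs and 10.99 in *Mst-/-* EBs. The brightest had 10.52 and 10.78, a difference of 0.26.

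At day 8 the call on *Pou3f1* rested on a single probe set. By its median the gene was 1.79-fold higher in *Mst-/-* EBs, with 0.84 ± 0.40, but 4 probe sets were higher and 3 lower, 1 was past 1.5-fold, and the median of their differences was 0.01. The probe set with the largest day 4 difference had 8.28 and 8.29 at day 8. From day 4 to day 8 *Pou3f1* had -1.43 ± 0.91 in *Mst-/-* EBs, with all 7 probe sets lower. In wild type EBs the change was -1.01 ± 0.42 by the medians and -0.14 as the median of the probe set differences.

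*Foxd3*, a forkhead transcription factor needed to keep the epiblast and later used by neural crest, had signals of 7.50 (wild type) and 8.86 (*Mst-/-*) at day 4 and of 7.42 (wild type) and 7.99 (*Mst-/-*) at day 8. Both *Mst-/-* arrays were higher than both wild type arrays, and the wild type arrays of day 4 and day 8 did not differ beyond the SD over probe sets. At day 4 *Foxd3* was 2.57-fold higher in *Mst-/-* EBs, with 1.36 ± 0.62 over 5 probe sets, each of them higher, by 0.55 to 1.89. At day 8 the difference was 0.57 ± 0.55, 1.48-fold and just within the threshold, with 5 of 5 probe sets higher, by 0.15 to 1.33. Quantile normalization, averaged probe sets or the brightest probe set brought the day 8 value past 1.5-fold. From day 4 to day 8 *Foxd3* was 1.83-fold lower in *Mst-/-* EBs, with -0.87 ± 0.58, and had -0.08 ± 0.33 in wild type EBs. On both wild type arrays its signal was under the 99th percentile of the receptor genes, 8.01 at day 4 and 7.98 at day 8.

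**Figure D2:**
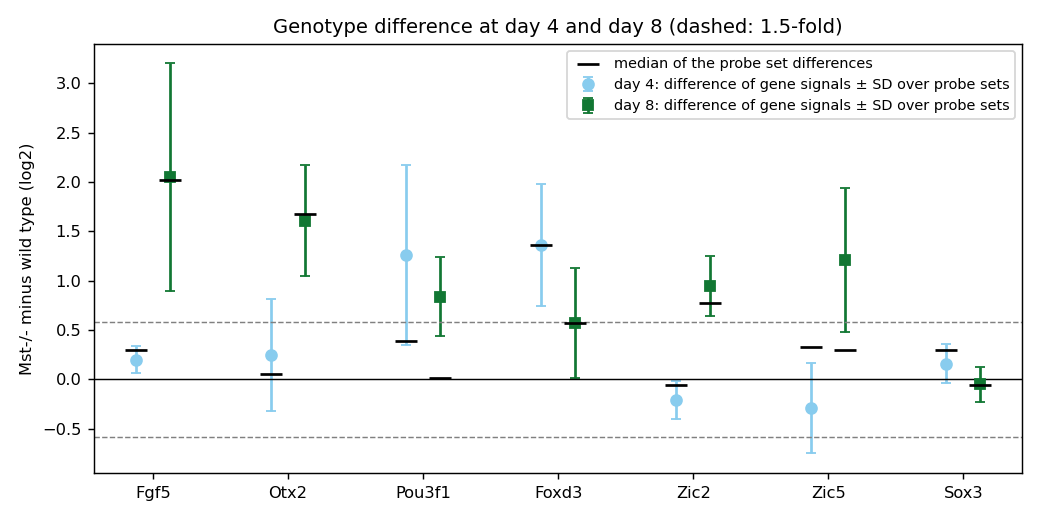
Difference of *Mst-/-* minus wild type EBs (log2) for each gene at day 4 (circles) and day 8 (squares), with the SD over probe sets as bars, the median of the probe set differences as black dashes, and 1.5-fold as dashed lines. *Fgf5* (2.05), *Otx2* (1.61) and *Zic2* (0.95) pass 1.5-fold at day 8 by either reading, while for *Pou3f1* and *Zic5* the black dashes at day 8 lie at 0.01 and 0.30, away from the squares.

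*Sox3* is an X-linked transcription factor of the SoxB1 group, which is present in the epiblast and in neural progenitors. Its signal was 9.09 (wild type) and 9.25 (*Mst-/-*) at day 4 and 9.09 (wild type) and 9.04 (*Mst-/-*) at day 8. No neighbours in the order of its 4 arrays differed beyond the SD over probe sets, and its range of 0.21 was the smallest among the 7 genes. The genotype differences were 0.16 ± 0.20 at day 4 and -0.05 ± 0.18 at day 8 over 7 probe sets, none of which passed 1.5-fold in any comparison. Each *Sox3* probe set was above background on each array, between 7.91 and 10.91.

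Across the course, 5 of the 7 genes were over 1.5-fold lower at day 8 than at day 4 in wild type EBs and 6 in *Mst-/-* EBs, against 12.7% of 12084 genes and 7.48% of 12143 genes. None was higher in either genotype, where 16.7% and 13.3% of genes were. By the median of the probe set differences both counts were 4, without *Pou3f1* in wild type EBs and without *Otx2* and *Zic5* in *Mst-/-* EBs, and both were 4 by the brightest probe set. The median over the 7 genes was -2.02 in wild type EBs and -0.87 in *Mst-/-* EBs. The genotypes were close under some other summaries of the probe sets, with -1.11 and -1.02 by their mean and -0.72 and -0.64 by the brightest. The median of the probe set differences gave -0.71 in both. With probe sets above background alone the genotypes stayed apart, at -2.12 (6 genes compared) and -1.18. *Fgf5* and *Zic2* were thus reduced in *Mst-/-* EBs too, 3.10-fold and 3.04-fold. The genotype difference itself was more than 1.5-fold larger at day 8 than at day 4 for *Fgf5*, *Otx2*, *Zic2* and *Zic5*, against 10.1% of 12525 genes, and more than 1.5-fold smaller for *Foxd3*, against 11.5%. Of the receptor genes 27.3% passed 1.5-fold in this comparison. The *Foxd3* value, -0.79 ± 0.41, was past 1.5-fold in 1 of 5 probe sets, and the call was lost by the mean over probe sets (-0.54), the brightest probe set (-0.56) and the median of the probe set differences (-0.53). For *Zic5* that value, 1.5, exceeds the highest value of any of its probe sets, 1.08, because the medians of the arrays fell on different probe sets, and the median of the probe set values was 0.51. The comparisons between days and between genotypes share arrays, so these counts are not independent of those given above.

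**Figure D3:**
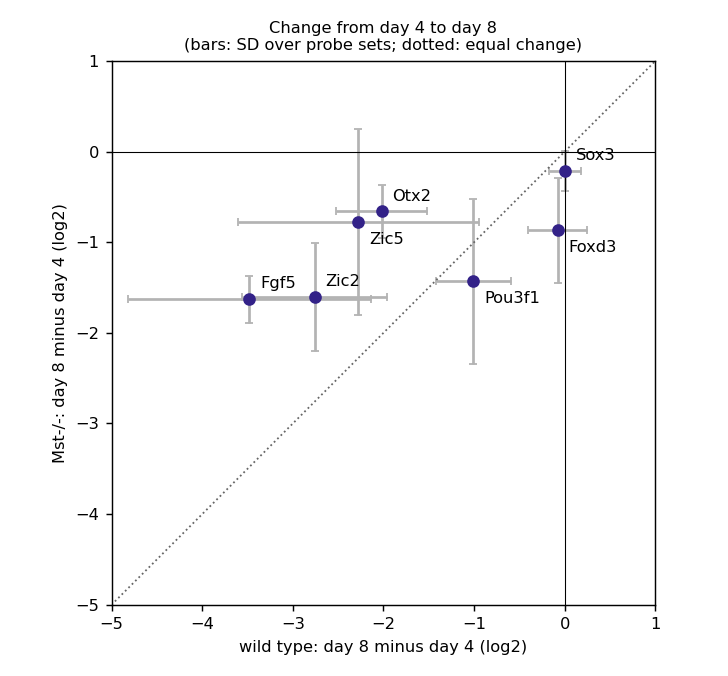
Change from day 4 to day 8 (log2) in wild type EBs (horizontal axis) and *Mst-/-* EBs (vertical axis) for the 7 genes, with the SD over probe sets as bars and equal change as a dotted line. *Fgf5*, *Zic2*, *Zic5* and *Otx2* lie above the line, with the larger reduction in wild type EBs, and *Pou3f1*, *Foxd3* and *Sox3* lie below it.

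The genes with the most similar profiles were sought among 2954 genes with at least 3 probe sets and a range of at least 1 over the arrays, by the Euclidean distance between profiles centred on their mean over the 4 arrays. Closest to *Fgf5* were *Tdgf1*, the Nodal co-receptor Cripto, at a distance of 0.45, *Trh*, which encodes thyrotropin-releasing hormone, at 0.55, and *Dnmt3b*, a de novo DNA methyltransferase, at 0.65. All 3 had high signals on both day 4 arrays and their lowest signal on the wild type array of day 8. *Tdgf1* had 13.14 in both genotypes at day 4 and 10.08 (wild type) and 11.70 (*Mst-/-*) at day 8. Among the primed epiblast genes themselves *Zic2* was nearest to *Fgf5*, as the 9th of the 2954 genes at 0.91. *Foxd3* was far from it, at rank 813.

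Closest to *Otx2* were *Sgk1*, a serum and glucocorticoid regulated kinase, at 0.14, *Cth*, an enzyme of cysteine synthesis, at 0.25 and *Kbtbd8* at 0.28, and closest to *Zic2* were *Upp1*, a uridine phosphorylase, at 0.27, the retinoid receptor gene *Rxrg*, below background on the wild type array of day 8, at 0.38 and the homeobox gene *Gsc* at 0.49. *Gsc* was also the second closest gene to *Zic5*, at 0.32, after *Foxj1* at 0.15 and before *Ltb*, also at 0.32, and *Foxj1* and *Ltb* likewise fell under background in wild type EBs of day 8. The neighbours of *Otx2* were highest on the *Mst-/-* array of day 4. Those of the remaining genes were also highest there, but by a wider margin over the wild type array of day 4. For *Pou3f1* they were *Efhc2*, below background in wild type EBs of day 8, *Fmr1nb* and *Epha2*, an ephrin receptor, at distances of 0.12 to 0.25. For *Foxd3* they were *Fetub*, *Mov10l1* and *Crct1*, at 0.10 to 0.11, each with wild type signals between 6.32 and 6.64 that lay below background. With 4 arrays many genes share a shape, and nearness here is a description.

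**Figure D4:**
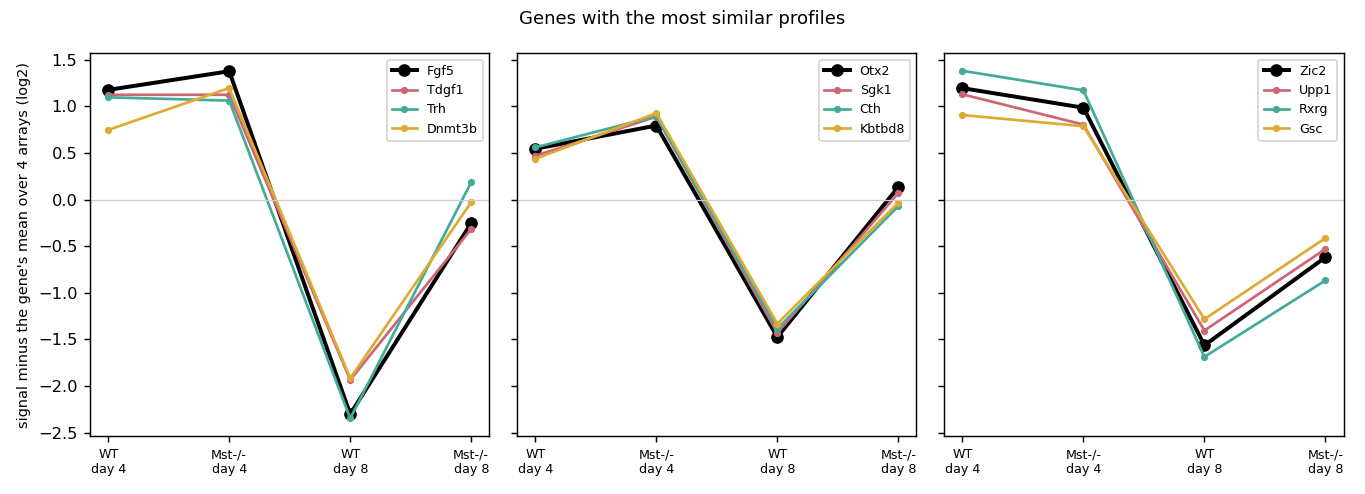
Profiles of *Fgf5*, *Otx2* and *Zic2* over the 4 arrays (black), as log2 signal minus the gene's own mean, with the 3 genes at the smallest distance from each in colour. Each set is high on both day 4 arrays and lowest in wild type EBs of day 8, and the *Mst-/-* array of day 8 lies between.

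Other genes that mark the primed and formative epiblast moved in part alongside. Of 12 further genes, each above background, 4 passed 1.5-fold toward *Mst-/-* EBs at day 4 and 2 toward wild type EBs, with a median of 0.12. At day 8 these counts were 6 and 2, with a median of 0.59. At day 8 *Dnmt3b* was higher by 1.89 ± 0.32 (26 probe sets), *Tdgf1* by 1.62 ± 0.31 (7 probe sets) and the ligand gene *Nodal* by 1.34 ± 0.68 (6 probe sets). *Nodal* was higher already at day 4, by 1.58 ± 0.72, as was *Grhl2*, a transcription factor of epithelia, by 1.66 ± 0.32 (20 probe sets), and *Cdh2*, which encodes N-cadherin, was lower, with -1.92 ± 0.32 (19 probe sets). *Dnmt3b* and *Tdgf1* thus differed past 1.5-fold at day 8 alone, as *Fgf5* and *Otx2* did, with day 4 values of 0.45 and 0.00, and *Nodal* and *Grhl2* on both days. *Dnmt3a*, the other de novo DNA methyltransferase, was lower at day 8, with -0.79 ± 0.54 (33 probe sets).

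Of 14 close relatives of the 7 genes on the arrays *Crx*, *Foxd4* and *Zic4* were below background on every array, and *Zic1* was above it on a single array. Of 10 compared at day 4, 2 were higher in *Mst-/-* EBs and 2 lower. Those higher were *Sox2*, a core pluripotency gene, with 2.09 ± 0.44 (6 probe sets), and *Fgf4*, a growth factor of naive ES cells, with 1.18 ± 0.85 (4 probe sets). Those lower were *Fgf3*, a growth factor of the primitive streak, with -2.09 ± 0.57 (4 probe sets) and a signal below background in *Mst-/-* EBs, and *Otx1*, with -0.69 ± 0.45 (14 probe sets), against 0.25 for *Otx2*. Of 11 compared at day 8, 2 were higher in *Mst-/-* EBs and none was lower, and the 2 were again *Fgf4*, with 0.98 ± 0.83, and *Sox2*, with 0.85 ± 0.25. *Sox1*, the neural relative of *Sox3*, had differences of -0.21 ± 0.23 on day 4 and 0.12 ± 0.30 on day 8 (8 probe sets).

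Several of the 7 genes are also used by other cells of the EB, so markers of these cells were read on the same arrays. Of neurectoderm markers, where *Otx2*, *Zic2*, *Zic5*, *Sox3* and *Pou3f1* recur, 1 of 9 compared on day 4 was past 1.5-fold, toward *Mst-/-* EBs, and on day 8 there were 2 of 10, in opposite directions. The summed linear signal of the 11 markers was 2512 (wild type) and 2757 (*Mst-/-*) on day 4 and 2886 (wild type) and 2230 (*Mst-/-*) on day 8. Most of the day 8 gap in this sum came from 1 gene, *Lhx2*, at 9.77 (wild type) and 8.00 (*Mst-/-*). *Pax6*, a defining marker, was below background on all 4 arrays. The median difference of the list was 0.16 on day 4, where its sign changed with other summaries of the probe sets, and -0.16 on day 8, and the largest was that of *Lhx2* on day 8, with -1.77 ± 0.91 (7 probe sets). Of 8 neural crest markers compared, a tissue where *Foxd3* recurs, 2 were higher and 2 lower in *Mst-/-* EBs on day 4, against 1 and 2 on day 8, with *Tfap2b* and *Pax3* below background on all arrays and medians of 0.11, a value whose sign was not stable either, and -0.30. Their summed signal was 2837 (wild type) and 3639 (*Mst-/-*) on day 4 and 6850 (wild type) and 5895 (*Mst-/-*) on day 8. These sums lean on single bright genes and do not describe the markers as a set. The widest linear gap on day 4 was that of *Erbb3*, at 8.96 (wild type) and 10.63 (*Mst-/-*). On day 8 it was that of *Snai2*, at 11.50 (wild type) and 11.05 (*Mst-/-*). The *Erbb3* receptor gene was the crest marker with the largest difference, 1.67 ± 0.37 at day 4 and 1.17 ± 0.29 at day 8 (31 probe sets).

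Markers of visceral endoderm, whose anterior part also uses *Otx2*, were 3 lower and none higher of 9 at day 4 and 3 higher and 1 lower of 10 at day 8, with medians of 0.17 and 0.18. Their summed signal was 10460 (wild type) and 6240 (*Mst-/-*) on day 4 and 19804 (wild type) and 18714 (*Mst-/-*) on day 8. *Cer1*, a secreted antagonist of the anterior visceral endoderm and early endoderm, had differences of -1.29 ± 0.15 on day 4 and 2.25 ± 0.45 on day 8 (4 probe sets). *Dkk1*, a Wnt antagonist, had -2.15 ± 0.21 on day 4 and 0.73 ± 0.16 on day 8 (7 probe sets), and *Afp*, a serum protein of the yolk sac endoderm, was below background on day 4 and went the other way on day 8, with -1.95 ± 0.50 (18 probe sets). The list medians changed sign with other summaries of the probe sets. Markers of the primitive streak, the structure that follows the primed epiblast, were 7 lower and none higher of 10 at day 4, and 6 higher and none lower of 9 at day 8, with medians of -0.91 and 1.14. Their summed signal was 26668 (wild type) and 14619 (*Mst-/-*) on day 4 and 2745 (wild type) and 7171 (*Mst-/-*) on day 8. *Fgf5* and *Otx2* were higher with them on day 8 but were not lower with them on day 4. *Zic2* had the sign of the streak medians on both days, with -0.21 ± 0.19 and 0.95 ± 0.30, the first within 1.5-fold. Its day 4 value was close to 0, at -0.055, as the median of the probe set differences. *Zic5* had these signs by its medians, with -0.29 ± 0.46 and 1.21 ± 0.73, but not by the median of its probe set differences.

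Of 12 naive pluripotency genes 9 were higher and 1 was lower in *Mst-/-* EBs on day 4, and 10 were higher and none lower on day 8, with medians of 1.40 and 1.03. Their summed signal was 8289 (wild type) and 21012 (*Mst-/-*) on day 4 and 6495 (wild type) and 16027 (*Mst-/-*) on day 8. *Nr0b1*, an X-linked regulator of the naive state, led those above background on all 4 arrays, with 3.89 ± 0.74 and 2.59 ± 0.53 (4 probe sets). Thus 9 of the 12 naive genes were higher in *Mst-/-* EBs at day 4, as *Foxd3* was, when *Fgf5*, *Otx2* and *Zic2* lay within 1.5-fold. The list did not move as one. *Klf4* (0.28) and *Zfp42* (0.16) were within 1.5-fold at day 4. *Tbx3* was lower at day 4, with -1.92 ± 0.90, and higher at day 8, with 0.98 ± 0.65 (19 probe sets). Whether *Foxd3* and the naive genes share a behaviour was not tested. *Pou5f1*, which encodes Oct4 and is present in both the naive and the primed state, had differences of 1.05 ± 0.20 on day 4 and 1.92 ± 0.22 on day 8 (7 probe sets). The part that each of these cell kinds has in the values of the 7 genes was not tested.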

How the data were processed

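The samples were the 4 EB cultures described above, with 1 Affymetrix mouse exon array each. What the authors deposited is a log2 signal for each probe set. Per the submitters' processing notes the arrays went through the Affymetrix Expression Console, with no version named, and the paper's methods mention Partek and Genespring as well. How the signals were normalized is not given in those sources. After sorting, the values of any pair of arrays were at most 0.16 apart, so they were used with no further scaling, and an effect of that normalization on the values cannot be seen here.

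Of 229581 probe sets, 209279 had 1 gene symbol, 4446 several and 15856 none. Of 16380 symbols, 14190 were current in RefSeq GRCm38.p6, 2145 matched a synonym and 45 matched nothing and kept the array's name. Probe sets were joined by the median to 16358 genes. Differences past 1.5-fold were called. With 1 array per group no p-value was computed, and the number of arrays limits the precision.

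The 7 genes, the context lists and the alternatives were chosen with earlier results of these data known. Named genes were the 7, *Stk4* and *Stk3* (which had no probe set to read), the 3 nearest profiles of each gene with a range of at least 1 (6 of the 7), without receptor or predicted genes, and members of each list with the largest genotype differences. *Eif2s3y* and the other genes named beyond this rule were chosen after their values were seen. Alternatives changed the array scaling, the summary over probe sets, the background and the threshold. The median of the probe set differences was added after seeing the data. The scripts were tested on simulated arrays. Python 3.11.15, numpy 2.4.6, pandas 2.3.3 and matplotlib 3.10.9 were used.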

Additional observations from a re-analysis of the deposited data

Results flagged for a closer look

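The genotype difference had opposite signs on the 2 days for *Zic2*, *Zic5* and *Sox3*, which drew attention to them, although with 1 array per group the difference between the days was not tested. *Zic2* was -0.21 at day 4 and 0.95 at day 8 by its medians, and -0.055 and 0.775 as the median of its probe set differences. At day 4, 3 of its 10 probe sets were higher in *Mst-/-* EBs and 7 were lower. *Zic5* was -0.29 at day 4 and 1.21 at day 8 by its medians, and 0.33 and 0.30 as the median of its probe set differences, where the signs are the same. *Sox3* was 0.16 at day 4 and -0.05 at day 8, both within the SD over its probe sets.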

How the results depend on the processing

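Of 313 recomputed values of the 7 genes, 7 had the opposite sign, 4 of them of values past 1.5-fold and the others the day 4 difference of *Zic5* (0.21 by the mean, 0.14 by probe sets above background and 0.33 by the median of the probe set differences, against -0.29). Another 18 of 189 recomputed medians had the opposite sign. Among them was the day 8 minus day 4 genotype difference of the 7 genes, 1.155 in the main analysis. The others were medians of the family relatives, neurectoderm, neural crest and visceral endoderm, which lay near 0 in the main analysis. The choice of probe sets mattered most. When each gene was read by its brightest probe set, the day 8 genotype difference was -0.24 for *Pou3f1* and -0.46 for *Zic5*, the change in wild type EBs was 0.07 for *Zic5*, and the day 8 minus day 4 genotype difference was -0.32 for *Zic5* and -0.28 as the median of the 7 genes. It also left 1 gene higher at day 4 and 0 genes with a smaller genotype difference at day 8, a median change of -0.72 in wild type EBs, and list medians of -0.26 (visceral endoderm, day 4), -0.03 (visceral endoderm, day 8), 1.03 (*Pou5f1* and *Sox2*, day 4) and 0.41 (primitive streak, day 8). Averaging probe sets gave a median change of -1.11 in wild type EBs and a median day 8 minus day 4 genotype difference of 0.31. The median of the probe set differences, chosen after seeing the data, gave -0.71 and 0.51 for the same values, with a median change of -0.71 in *Mst-/-* EBs as well, 1 gene higher at day 4, 3 higher at day 8 and 0 with a smaller genotype difference at day 8. With probe sets above background alone, that last count was 2. A 2-fold threshold gave 3 genes higher at day 8, 3 lower in *Mst-/-* EBs from day 4 to day 8 and 0 with a smaller genotype difference at day 8, and asking that 75% of probe sets share the gene's sign gave 3 genes higher at day 8. With background at the 99th percentile the family relatives had a day 8 median of 0.48. The cause was not tested. No paired analysis was possible because each genotype and day has 1 array, and for the same reason no array could be left out. Signal near background limits *Foxd3* and *Pou3f1*, and *Fgf5* in wild type EBs of day 8.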
